A study of Homo sapiens with 12 samples.

Results

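The genes described here are the partner genes of the EWS-FLI1 fusion, EWSR1 and FLI1, together with NR0B1, NKX2-2, STEAP1, PRKCB, GLI1, BCL11B, EZH2 and CD99, which are well known targets that the fusion activates. The genes were taken by symbol from the table of raw read counts, with no threshold on a measured value. All 10 were found among the 20771 genes of the table, and all 10 passed the filter on low counts that left 16515 genes for testing. Ewing sarcoma is a bone and soft tissue cancer of young people that is driven in most tumors by a fusion of the front part of EWSR1, an RNA-binding protein of the FET family, with the DNA-binding part of FLI1, a transcription factor of the ETS family. The fusion protein binds DNA at single GGAA motifs and at long GGAA repeats, and it opens the repeats as enhancers of nearby genes while it lowers the expression of other genes. Since the promoter of EWSR1 drives the fusion and most of the back part of the fusion transcript comes from FLI1, the reads of the fusion fall on both genes in a table of counts per gene.

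Polyadenylated RNA was sequenced in 12 libraries from EW8-RRM1-KO and TC71-RRM1-KO, a pair of Ewing sarcoma cell lines. Both lines carried a codon-optimized RRM1 transgene that doxycycline switches on and a CRISPR/Cas9 knockout of their own RRM1, which encodes the large subunit of ribonucleotide reductase, the enzyme that makes deoxynucleotides for DNA. Each knockout line was grown from a single cell, so each stands for 1 clone, and a line without the knockout was not analysed here. The 4 groups of 3 libraries were EW8 and TC71 labelled 0 h, which held doxycycline, and EW8 and TC71 labelled 48 h, which had been without doxycycline for 48 hours. The labels give the time, and the state of doxycycline is taken from the study's description. The labels do not say whether the 3 libraries of a group came from separate cultures, so the p-values measure the spread between these libraries, which may be technical.

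The libraries held between 18468485 and 35698991 counts each. Mitochondrial genes took 3.80 to 4.09% of the counts in EW8 at 0 h against 3.05 to 3.54% at 48 h, and 4.20 to 5.11% against 2.68 to 3.99% in TC71, and the part of this shift in the changes below was not tested. TC71 48 h replicate 3 stood apart from the other two libraries of its group, with the 2.68% and with chi-square values per gene of 7.11 and 8.56 against them, and without it 4 of the 10 genes described here rose and 4 fell in TC71, against 3274 and 2682 of all genes. RRM1 went from 214, 166 and 317 counts in EW8 with doxycycline to 1201, 1449 and 1514 without it. In TC71 it went from 422, 316 and 418 counts to 674, 707 and 778. These counts rose where the transgene was switched off and, being counts of the RRM1 gene that do not report a codon-optimized transgene, they do not check the labels. Levels are given in CPM, the counts of a gene per 1000000 counts of the library after TMM scaling. For the markers alone, CPM is relative to the library total without TMM scaling. The 7 Ewing sarcoma markers were CD99, NKX2-2, NR0B1, FLI1, STEAP1, PRKCB and BCL11B. These are all among the 10 genes described here and give no separate check of the cell type. All 7 lay above 1 CPM in every group and summed to 1024 to 1247 CPM. Of 5 markers for each other cell type, 2 had a row used here for blood cells and for epithelium, with a summed level of at most 0.378 and 2.27 CPM. Only 1 of 5 had one for endothelium (CDH5, at most 0.210 CPM), skeletal muscle (MYH3, at most 3.74 CPM) and sympathetic neurons (HAND2, at most 5.68 CPM). By edgeR, 37.0% of the genes tested were higher and 31.6% lower at 48 h in EW8, and 22.9% were higher and 19.2% lower in TC71. When libraries were scaled by total counts alone, 7207 genes were higher and 4031 lower in EW8, against 6103 and 5226 with TMM scaling, and 4631 were higher and 2345 lower in TC71, against 3776 and 3179.

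The DNA beside NR0B1 is shown first because it holds the kind of sequence that the fusion binds. NR0B1 (ENSG00000169297) lies on chromosome X at 30304206-30309390 on the minus strand of hg38, and encodes DAX1, an orphan nuclear receptor that represses other nuclear receptors. Within 5000 bases of its start site the reference genome holds a GGAA microsatellite at chrX:30310738-30310879, which lies outside the transcribed gene and is printed here from the minus strand with the GGAA repeats in capitals.

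NR0B1 upstream microsatellite: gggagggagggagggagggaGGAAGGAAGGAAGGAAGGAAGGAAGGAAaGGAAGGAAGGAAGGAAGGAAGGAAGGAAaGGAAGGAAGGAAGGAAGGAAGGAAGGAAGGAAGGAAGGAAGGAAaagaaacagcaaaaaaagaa

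The capitals form 3 runs of 7, 7 and 11 repeats, 25 in all, between 1368 and 1469 bases upstream of the start site. This is the reference sequence, and the repeat number in EW8 and TC71 was not measured. GGAA was searched on both strands, and only repeats that follow each other without a gap counted as a run. A run of 11 or more lay within the same distance of 146 of the 15991 genes tested that had a start site in the annotation, or 0.913%, and a run of 4 or more near 516 of them, or 3.23%. In the other 9 genes the longest run was 1 or 2 repeats. The search describes only these letters in this window.

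At 48 h all 10 genes had changed in EW8, where 4 rose and 6 fell, against 68.6% of all genes tested. In TC71 4 rose, 5 fell and 1 was not called, against 42.1% of all genes tested. Genes on the list of activated targets moved in both directions. NR0B1, NKX2-2, STEAP1 and EZH2 rose in both lines, and EWSR1, FLI1, PRKCB, GLI1 and BCL11B fell in both, while CD99 fell in EW8 and was not called in TC71. BCL11B in EW8 was the only one of the 10 to pass a fold of 2, a size that 3.35% of all genes reached downward and 13.9% upward in that line. With scaling by total counts BCL11B was at -0.98, short of a fold of 2, and NR0B1 at 1.10 was past it. NR0B1 was also past it without EW8 48 h replicate 2 (1.02). In TC71 none of the 10 reached a fold of 2, against 0.854% of all genes downward and 3.26% upward. Over the 10 genes the log2 fold changes had a median of -0.25 in EW8 and -0.07 in TC71, beside medians of 0.03 and -0.0013 over all genes tested. The CPM ranges of the 3 libraries at 0 h and 48 h did not overlap for 10 of 10 genes in EW8, against 71.1% of all genes, and for 9 of 10 in TC71, against 49.6%.

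**Figure D1:**
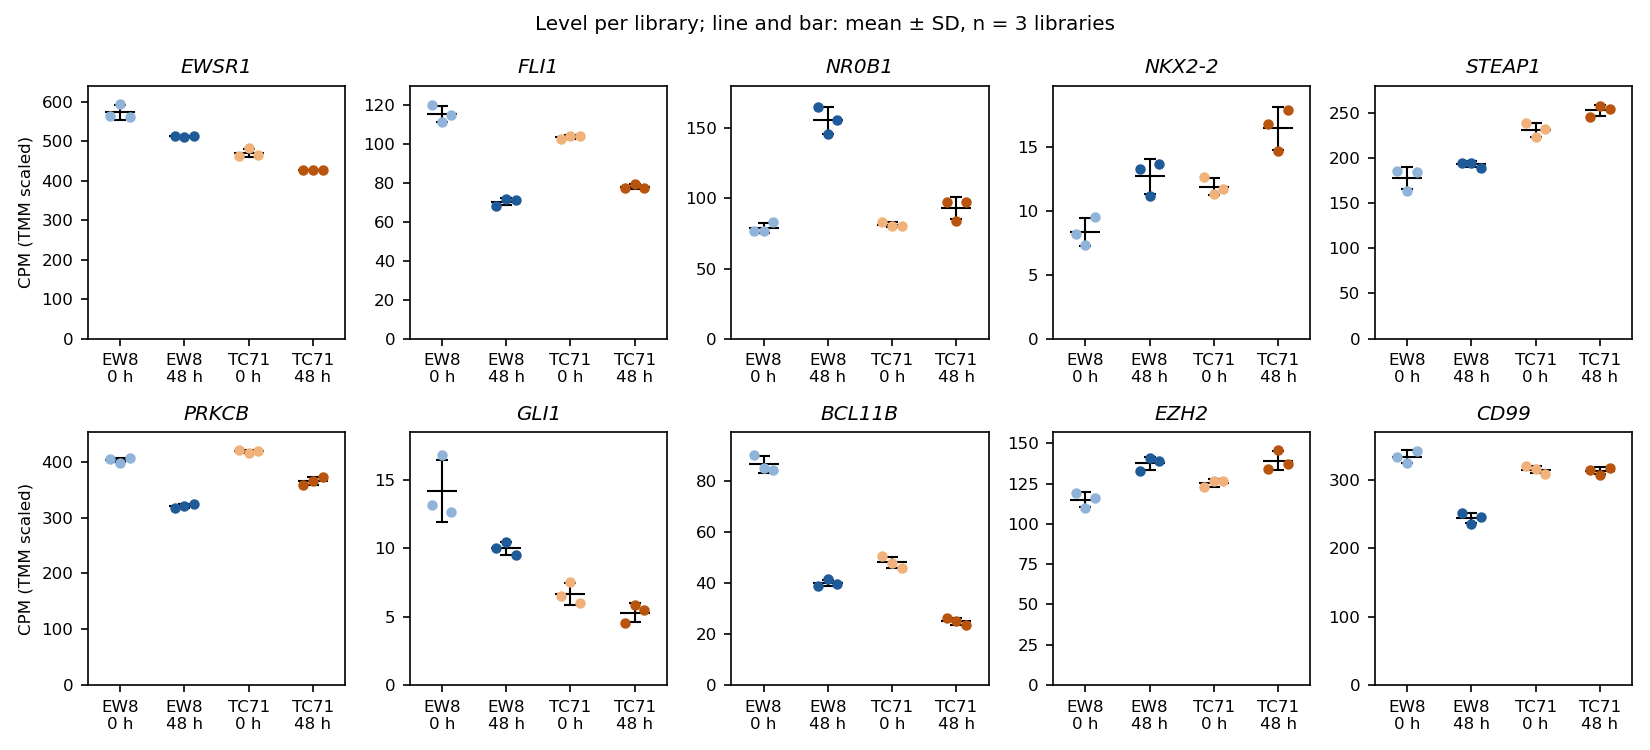
Expression of the 10 genes in each library, in CPM on an axis that starts at 0, for EW8 and TC71 at 0 h and 48 h. Points are libraries, and the line and bar give the mean and SD of 3 libraries. FLI1 and BCL11B sit lower at 48 h in both lines, NR0B1 rises from about 79 to 156 CPM in EW8 and from about 81 to 93 CPM in TC71, and CD99 is lower at 48 h in EW8 while its groups overlap in TC71.

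The fusion partners both fell. EWSR1 (ENSG00000182944, chromosome 22 at 29268009-29300525, plus strand) had 563, 595 and 562 CPM in the EW8 libraries at 0 h and 513, 511 and 513 CPM at 48 h. In TC71 it had 463, 482 and 465 CPM at 0 h and 426, 427 and 428 CPM at 48 h. All 0 h libraries of a line were above all of its 48 h libraries, by a small margin. The log2 fold change of EWSR1 was -0.16 ± 0.0348 (SE, edgeR adjusted p = 1.09e-04) in EW8 and -0.14 ± 0.0348 (edgeR adjusted p = 0.00161) in TC71, and the EW8 value was -0.04 and not called (edgeR adjusted p = 0.319) when libraries were scaled by total counts alone, which gave -0.09 in TC71. In bulk RNA a lower level can come from fewer cells with a high level or from less of the gene's RNA in each cell. These cannot be told apart here.

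FLI1 (ENSG00000151702, chromosome 11 at 128686535-128813267, plus strand) fell further. Its level was 119.8, 111 and 115 CPM in EW8 at 0 h and 68.1, 71.5 and 70.9 CPM at 48 h. The TC71 libraries had 103, 104 and 104 CPM at 0 h and 77.3, 79.6 and 77.3 CPM at 48 h. The groups were far apart beside their spread in both lines. The log2 fold change was -0.72 ± 0.0451 (SE, edgeR adjusted p = 6.06e-16) in EW8, a decrease to 0.608 of the 0 h level, and -0.41 ± 0.0439 (edgeR adjusted p = 2.76e-09) in TC71, a decrease to 0.754. The difference between the lines, EW8 minus TC71, was -0.31 (95% interval -0.44 to -0.18, edgeR adjusted p = 1.04e-04).

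The share of FLI1 reads relative to EWSR1 reads was computed within each library, which leaves out any scaling between libraries. With doxycycline the EW8 libraries held 21.3, 18.7 and 20.4 FLI1 counts per 100 EWSR1 counts, and without it 13.3, 13.99 and 13.8. The TC71 libraries held 22.1, 21.6 and 22.4 with doxycycline, and 18.1, 18.6 and 18.1 without it. Every 48 h library was below every 0 h library of its line. The means were 20.1 ± 1.30 and 13.7 ± 0.379 (SD, n = 3) in EW8 and 22.03 ± 0.416 and 18.3 ± 0.322 (SD, n = 3) in TC71. By an exact two-sided permutation test the p was 0.1 in each line, which is the smallest value that 3 against 3 libraries allow. Counts per gene do not separate the fusion transcript from EWSR1 transcribed from the unfused allele or from FLI1 outside the fusion, so the level of EWS-FLI1 itself was not measured.

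**Figure D2:**
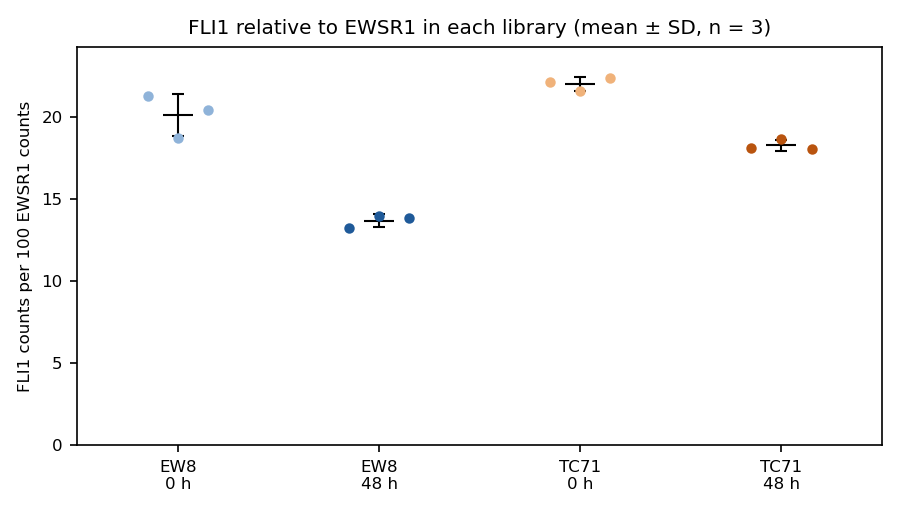
FLI1 counts per 100 EWSR1 counts in each of the 12 libraries, with the mean and SD of 3 libraries per group and an axis that starts at 0. The EW8 libraries at 48 h lie between 13.3 and 13.99, below the 18.7 to 21.3 of 0 h, and the TC71 libraries at 48 h lie between 18.1 and 18.6, below the 21.6 to 22.4 of 0 h.

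Among the transcription factors that the fusion activates, NR0B1 and NKX2-2 rose and GLI1 and BCL11B fell. NR0B1, the gene beside the microsatellite printed above, had 76.7, 76.6 and 83.4 CPM in EW8 at 0 h and 166, 146 and 156 CPM at 48 h. In TC71 it had 83.5, 80.2 and 80.1 CPM at 0 h and 97.8, 83.9 and 97.2 CPM at 48 h. The EW8 groups were far apart, whereas the lowest TC71 library at 48 h lay just above the highest at 0 h. The log2 fold change was 0.98 ± 0.0549 (SE, edgeR adjusted p = 2.35e-16) in EW8, or 1.97-fold, and 0.19 ± 0.0549 (edgeR adjusted p = 0.00484) in TC71, or 1.14-fold. The EW8 value exceeded that in TC71 by 0.78 (95% interval 0.63 to 0.94, edgeR adjusted p = 8.65e-10).

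NKX2-2 (ENSG00000125820, chromosome 20 at 21511017-21514064, minus strand) encodes a homeodomain repressor that is used as a marker of Ewing sarcoma in pathology. Its level was 8.19, 7.33 and 9.49 CPM in EW8 at 0 h and 13.2, 11.1 and 13.6 CPM at 48 h. The TC71 libraries had 12.6, 11.3 and 11.7 CPM at 0 h and 16.8, 14.6 and 17.9 CPM at 48 h. NKX2-2 rose in both lines, with log2 fold changes of 0.58 ± 0.104 (SE, edgeR adjusted p = 9.77e-06) in EW8 and 0.47 ± 0.0915 (edgeR adjusted p = 9.38e-05) in TC71, and a difference of 0.11 (95% interval -0.17 to 0.39, edgeR adjusted p = 0.542) that was 0.00028 without EW8 0 h replicate 2 and 0.21 without EW8 0 h replicate 3. The counting setting for strand was not given in the sources used here, and antisense genes overlap the exons of NKX2-2. The same limit holds for FLI1 (overlaps of 167 and 162 bases), EWSR1 (121 bases, with RHBDD3) and GLI1 (5 bases, with ARHGAP9). RHBDD3 rose in EW8 (0.76, edgeR adjusted p = 4.93e-10) and was not called in TC71 (0.11, edgeR adjusted p = 0.214).

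GLI1 (ENSG00000111087, chromosome 12 at 57459785-57472268, plus strand) encodes the transcription factor at the end of the Hedgehog pathway. It had between 118 and 414 counts per library. Its level was 13.1, 16.8 and 12.6 CPM in EW8 at 0 h and 10.0, 10.5 and 9.49 CPM at 48 h. In TC71 it was 6.52, 7.50 and 5.96 CPM at 0 h and 4.50, 5.86 and 5.47 CPM at 48 h. The ranges at 0 h and 48 h were separate in each line, narrowly so in TC71. GLI1 fell in EW8 by -0.48 ± 0.106 on the log2 scale (SE, edgeR adjusted p = 1.54e-04) and in TC71 by -0.32 ± 0.124 (edgeR adjusted p = 0.0343). The TC71 call was lost without TC71 0 h replicate 1, 0 h replicate 2, 48 h replicate 1 or 48 h replicate 3, with edgeR adjusted p-values of 0.0674, 0.154, 0.173 and 0.0506, and with scaling by total counts (-0.27, edgeR adjusted p = 0.0862).

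BCL11B (ENSG00000127152, chromosome 14 at 99169287-99272197, minus strand) encodes a zinc finger repressor known from T cell and neuron development. It had 90.2, 85.4 and 84.2 CPM in EW8 at 0 h and 39.0, 41.6 and 39.7 CPM at 48 h. In TC71 it had 50.5, 48.0 and 45.9 CPM at 0 h and 26.4, 25.3 and 23.4 CPM at 48 h. These were the largest falls of the 10 genes in both lines. The log2 fold change was -1.11 ± 0.0546 (SE, edgeR adjusted p = 7.48e-19) in EW8 and -0.95 ± 0.0573 (edgeR adjusted p = 2.98e-15) in TC71. The difference of -0.16 (95% interval -0.32 to -0.0014) was not called (edgeR adjusted p = 0.0901), and it was called without EW8 0 h replicate 2 (-0.21, edgeR adjusted p = 0.0341) or without TC71 48 h replicate 3 (-0.21, edgeR adjusted p = 0.0359).

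**Figure D3:**
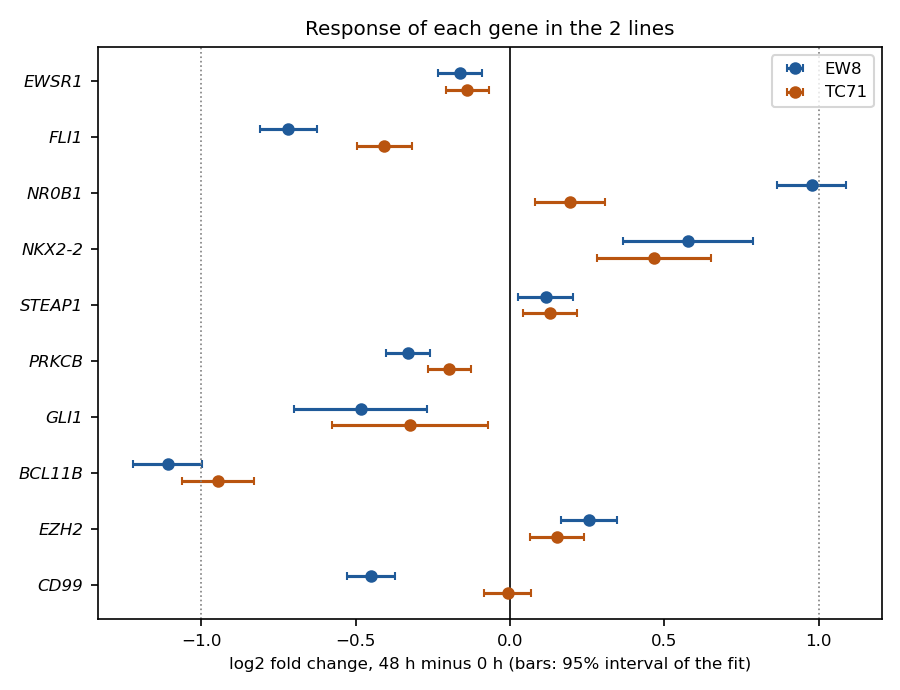
Log2 fold change at 48 h relative to 0 h for each of the 10 genes in EW8 and TC71, with the 95% interval of the edgeR fit and dotted lines at a fold of 2. The intervals of the lines are apart for FLI1, NR0B1 and CD99, and BCL11B has the lowest value in both lines, -1.11 and -0.95.

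The remaining targets are an enzyme of signalling, a chromatin enzyme and a pair of surface proteins. PRKCB (ENSG00000166501, chromosome 16 at 23835983-24220611, plus strand) encodes protein kinase C beta. Its level was 405, 399 and 407 CPM in EW8 at 0 h and 317, 321 and 325 CPM at 48 h. TC71 libraries had 422, 416 and 419.7 CPM at 0 h and 359, 366 and 372 CPM at 48 h. PRKCB fell in both lines with little spread between libraries. On the log2 scale the change was -0.33 ± 0.0348 (SE, edgeR adjusted p = 2.71e-10) in EW8 and -0.20 ± 0.0344 (edgeR adjusted p = 1.84e-05) in TC71. The fall was larger in EW8 by -0.13 (95% interval -0.23 to -0.034, edgeR adjusted p = 0.0237), a call lost without EW8 48 h replicate 1 (edgeR adjusted p = 0.0578) or TC71 48 h replicate 3 (edgeR adjusted p = 0.0597), and lost when libraries were scaled by total counts (-0.06, edgeR adjusted p = 0.278), which also gave -0.21 in EW8.

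CD99 (ENSG00000002586), a membrane glycoprotein that is the classic surface stain for Ewing sarcoma, lies in the pseudoautosomal region of chromosome X at 2691187-2741309 on the plus strand. It had 334, 324 and 343 CPM in EW8 at 0 h and 252, 236 and 245 CPM at 48 h. In TC71 it had 319.8, 316 and 309 CPM at 0 h and 315, 308 and 318 CPM at 48 h, and these ranges overlap. The log2 fold change was -0.45 ± 0.0377 (SE, edgeR adjusted p = 1.06e-12) in EW8. In TC71 it was -0.0078 ± 0.0372 (95% interval -0.083 to 0.068, edgeR adjusted p = 0.888), which leaves room for a change of about 0.08 on the log2 scale in either direction. The difference between the lines was -0.44 (95% interval -0.55 to -0.34, edgeR adjusted p = 1.68e-08). CD99P1 is a transcribed pseudogene whose reads may be split with CD99 by the counting. In EW8 it had 188 to 375 counts at 0 h and 477 to 576 at 48 h, against 4708 to 11244 counts for CD99. CD99P1 rose in EW8 (1.18, edgeR adjusted p = 5.63e-12) and was not called in TC71 (-0.02, edgeR adjusted p = 0.907).

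STEAP1 (ENSG00000164647, chromosome 7 at 90154456-90164829, plus strand) encodes a membrane protein of the metalloreductase family. Its level was 186, 164 and 184 CPM in EW8 at 0 h and 195, 195 and 189 CPM at 48 h. TC71 libraries had 239, 223 and 233 CPM at 0 h and 246, 258 and 255 CPM at 48 h. STEAP1 rose slightly in both lines, with log2 fold changes of 0.12 ± 0.0440 (SE, edgeR adjusted p = 0.0208) in EW8 and 0.13 ± 0.0428 (edgeR adjusted p = 0.0150) in TC71. In EW8 the value was 0.03 without EW8 0 h replicate 2 (edgeR adjusted p = 0.559), and the call was lost also without EW8 0 h replicate 3, 48 h replicate 1 or 48 h replicate 2 (edgeR adjusted p = 0.0577, 0.0539 and 0.0577), with upper-quartile scaling (0.08, edgeR adjusted p = 0.103) and with EW8 fitted alone (0.09, edgeR adjusted p = 0.0788), while scaling by total counts gave 0.24. In TC71 it was lost without TC71 0 h replicate 2 (edgeR adjusted p = 0.107) or 48 h replicate 2 (edgeR adjusted p = 0.0637).

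EZH2 (ENSG00000106462, chromosome 7 at 148807257-148884321, minus strand) encodes the enzyme of Polycomb repressive complex 2 (PRC2) that methylates histone H3 at lysine 27. Its level was 119, 110.1 and 116 CPM in EW8 at 0 h and 133, 141 and 139 CPM at 48 h. In the TC71 libraries it was 123, 127 and 127 CPM at 0 h and 134, 146 and 137 CPM at 48 h. EZH2 rose in both lines, with log2 fold changes of 0.26 ± 0.0445 (SE, edgeR adjusted p = 4.79e-06) in EW8 and 0.15 ± 0.0435 (edgeR adjusted p = 0.00506) in TC71. The TC71 call was lost without TC71 48 h replicate 2 (0.11, edgeR adjusted p = 0.0561).

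The order of the levels was compared per length, as CPM per kilobase of merged exons. In EW8 at 0 h it ran from STEAP1 at 115 through CD99 at 68.7, EWSR1 at 55.6, NR0B1 at 39.6, PRKCB at 36.5 and FLI1 at 14.4 to EZH2 at 10.7, BCL11B at 10.2, NKX2-2 at 3.93 and GLI1 at 3.11. The ranges of EZH2 and BCL11B overlapped, as did those of NKX2-2 and GLI1. At 48 h in EW8, NR0B1 at 78.1 stood second after STEAP1 at 125, and CD99 at 50.3 and EWSR1 at 49.6 overlapped. In TC71 at 0 h STEAP1 at 149.9 was again the highest and GLI1 at 1.46 the lowest, and BCL11B at 5.64 and NKX2-2 at 5.59 overlapped. At 48 h EZH2 stood above FLI1 in both lines, with 12.8 against 8.74 in EW8 and 12.9 against 9.72 in TC71, whereas FLI1 had been the higher at 0 h with 14.4 against 10.7 and 12.9 against 11.6. Without division by length, EWSR1 at 574 CPM stood highest in EW8 at 0 h, above PRKCB at 404, CD99 at 334 and STEAP1 at 178 CPM. NR0B1 at 78.9 CPM was then far below PRKCB. At 0 h FLI1 and EZH2 were at 115 and 115 CPM in EW8 and at 104 and 125 CPM in TC71. The merged exons ran from 1544 bases in STEAP1 to 11049 in PRKCB, so the order of the 10 genes depends on the exon lengths used.

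The response differed between the lines for 4 of the 10 genes, NR0B1, FLI1, PRKCB and CD99, against 48.1% of all genes tested. Only NR0B1 was higher in the EW8 response, against 25.7% of all genes, and FLI1, PRKCB and CD99 were lower, against 22.4%. None of these differences passed a fold of 2, against 7.28% of all genes upward and 0.981% downward. The other 6 differences were not called. Their 95% intervals were wide for GLI1 (-0.49 to 0.17) and NKX2-2 (-0.17 to 0.39) and narrower for EWSR1 (-0.12 to 0.076), STEAP1 (-0.14 to 0.11) and EZH2 (-0.021 to 0.23).

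With doxycycline present, 8 of the 10 genes differed between TC71 and EW8, against 65.7% of all genes. NKX2-2, STEAP1 and EZH2 were higher in TC71, as were 32.9% of all genes, with log2 differences of 0.49, 0.38 and 0.12 and edgeR adjusted p-values of 8.94e-05, 2.59e-09 and 0.0156. EWSR1, FLI1, GLI1, BCL11B and CD99 were lower, as were 32.8% of all genes, by -0.29, -0.16, -1.08, -0.85 and -0.08 with edgeR adjusted p-values of 6.74e-09, 0.00188, 2.07e-10, 5.58e-16 and 0.0472. NR0B1 (0.04, edgeR adjusted p = 0.555) and PRKCB (0.05, edgeR adjusted p = 0.161) were not called. GLI1 alone passed a fold of 2, against 4.77% of all genes downward and 11.9% upward, and 9 of the 10 genes had separate CPM ranges, against 68.3%. The GLI1 difference lay between -1.17 and -0.97 over the fits that left out 1 library, and at -0.97 it does not pass a fold of 2. The direction of CD99 turned with scaling by total counts (0.05, edgeR adjusted p = 0.219), EWSR1 was at -0.15, and FLI1 was then not called (-0.02, edgeR adjusted p = 0.614) while NR0B1 (0.17, edgeR adjusted p = 0.0116) and PRKCB (0.19, edgeR adjusted p = 4.22e-06) were. With upper-quartile scaling neither CD99 (-0.0049, edgeR adjusted p = 0.909) nor FLI1 (-0.08, edgeR adjusted p = 0.0891) was called, and CD99 lost its call in 8 of 12 fits that left out 1 library. The EZH2 call was lost without EW8 0 h replicate 2 (0.08, edgeR adjusted p = 0.0885) or TC71 0 h replicate 3 (edgeR adjusted p = 0.0536), and its value was 0.26 with total counts. The line and the clone cannot be told apart here.

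A wider list of 40 other genes known to be activated by EWS-FLI1 was read beside the 10, and 39 of them were tested while MFNG was not analysed here. In EW8 28 rose and 4 fell, with a median log2 fold change of 0.35, where 37.0% of all genes rose and 31.6% fell around a median of 0.03. In TC71 25 rose and 4 fell, with a median of 0.21, where 22.9% of all genes rose and 19.2% fell around a median of -0.0013. The largest rise past a fold of 2 in both lines was that of UPP1, the uridine phosphorylase, which went from 4, 0 and 5 counts in EW8 to 29, 20 and 22 (3.23 on the log2 scale, edgeR adjusted p = 5.41e-08) and rose by 1.47 in TC71 (edgeR adjusted p = 1.1e-07). LOXHD1 (2.49) and DKK2 (1.93), which encodes a modulator of Wnt signalling, followed in EW8, and CCK (1.44), which encodes the peptide cholecystokinin, in TC71. The genes that fell were named after their values were seen. They were PPP1R1A (-0.47), GSTM4 (-0.42), HOXD13 (-0.37) and PRC1 (-0.15) in EW8 and CALCB (-0.42), AURKA (-0.24), HOXD13 (-0.18) and SLFN11 (-0.14) in TC71. Of the same 39 genes, 9 had 4 or more GGAA in a row within 5000 bases of the start site, or 23.1%, against 3.23% of all genes tested that had a start site. These were CAV1, CCK, FCGRT, FEZF1, GSTM4, LIPI, PAX7, RBM11 and STEAP2, of which 7 rose and 1 fell in EW8 and 8 rose in TC71. Over all 39 genes of the list, 28 rose and 4 fell in EW8 and 25 rose in TC71. Of all genes tested, 37.0% rose and 31.6% fell in EW8 and 22.9% rose in TC71. A link of the repeats to the response was not tested. The list came from general knowledge of targets of a fusion that binds such repeats, so its 23.1% is not an independent result.

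Of 25 genes known to be repressed by the fusion, 21 were tested, and IGFBP3, SPRY1, DKK1 and CD44 were not analysed here. In EW8 18 rose and 2 fell, against 37.0% and 31.6% of all genes, with 14 of the rises past a fold of 2, against 13.9% of all genes, and a median log2 fold change of 1.80. In TC71 16 rose and 1 fell, against 22.9% and 19.2%, with 8 of the rises past a fold of 2, against 3.26%, and a median of 0.80. Among the largest rises in EW8 were those of TGFBI, an extracellular matrix protein, which went from 0, 1 and 4 counts to 32, 35 and 42, and of CCN2, a matrix-associated growth factor, with a log2 fold change of 3.91. In TC71 IER3, an early stress response gene, rose by 2.17 and CDKN1A, the inhibitor of cyclin-dependent kinases p21, by 2.05. IGFBP5, which binds insulin-like growth factors, went the other way in both lines, by -1.61 in EW8 (from 423, 310 and 579 counts to 122, 130 and 97) and by -1.27 in TC71. Several of these genes answer to many stimuli, and the part of the fusion in their change was not tested.

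**Figure D4:**
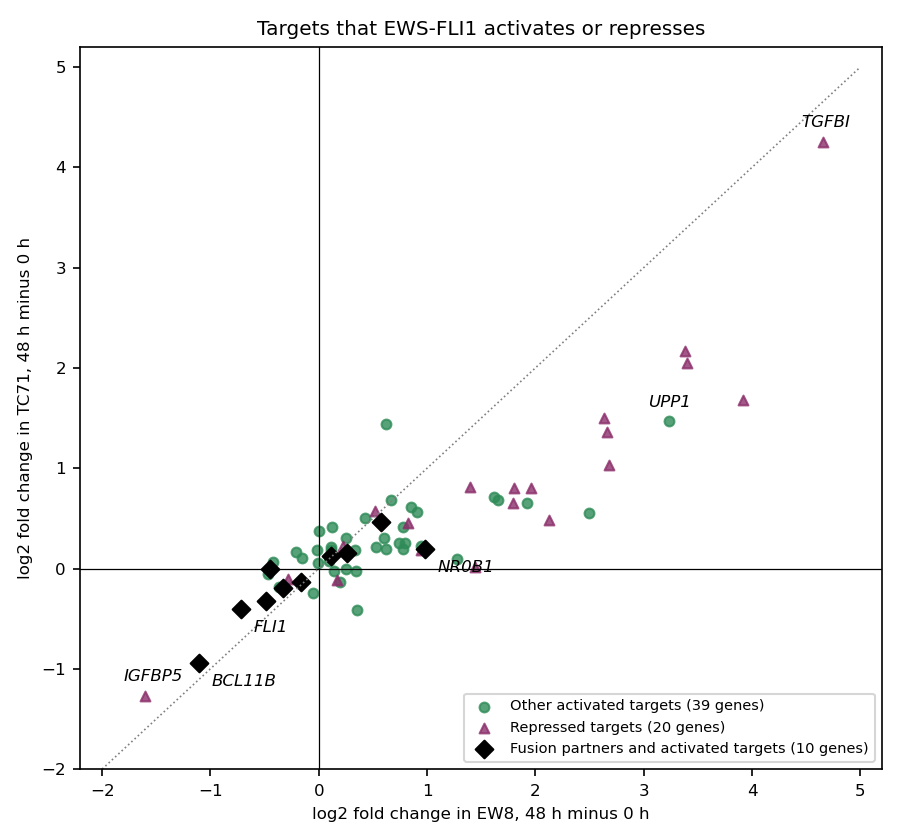
Log2 fold change at 48 h in TC71 against EW8, 1 point per gene, for the 10 genes, 39 other activated targets and 20 of the repressed targets, with a dotted line where both are equal. The repressed targets shown reach from -1.61 for IGFBP5 to 4.65 for TGFBI in EW8 and from -1.27 upward in TC71, and the value of TGFBI in TC71 is not firm because its 3 libraries at 0 h held 0 counts.

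The list of 10 other PRC2 genes, which holds the core and accessory subunits and EZH1, the enzyme that can take the place of EZH2, was tested in full. In EW8 4 of them rose while 4 fell, and in TC71 3 rose while 2 fell, with none past a fold of 2. These counts are near the shares of all genes, 37.0% and 31.6% in EW8 and 22.9% and 19.2% in TC71. The 10 fold changes had a log2 median of -0.03 in EW8 and 0.06 in TC71. Around GLI1, 7 Hedgehog pathway genes were tested, and the ligands SHH, IHH and DHH were not analysed here. In EW8 4 rose and 2 fell, where 37.0% and 31.6% of all genes did, and in TC71 3 rose, where 22.9% did. HHIP, an antagonist that binds the ligands, went from 22, 12 and 16 counts in EW8 to 92, 99 and 88, and rose by 2.77 on the log2 scale (edgeR adjusted p = 1.83e-14), against 1.55 (edgeR adjusted p = 1.23e-08) in TC71.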

How the data were processed

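RNA of the 12 libraries was isolated with the RNeasy Plus kit and made into TruSeq Stranded mRNA libraries, per the labels, and reads were checked with FastQC and mapped to hg38 with STAR, per the submitters' processing notes. The counter and its strand setting are not given in the sources used here. The deposited values are raw counts per gene, whole numbers with no normalization by the authors. Each column was matched to its library by the sample titles, and no column was left unused. The 10 genes, the gene lists, the markers and the tests were chosen with earlier results of these data known, although the choice of the 10 genes set no threshold on a value. The rule for named genes took the 10 genes, RRM1 and, per list and line, at most 3 rises and 3 falls past a fold of 2 with more than 3 counts in some library of the lower group. The genes of the activated and ETS lists that fell were named outside this rule after their values were seen, and those with GGAA runs by their sequence. Some genes that this rule or the lists would name are not reported here.

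Genes were filtered with filterByExpr (minimum count 10, minimum total 15), scaled by TMM, and tested with the quasi-likelihood test of edgeR 4.0.16 in R 4.3.3 on all 12 libraries in 4 groups. P-values were adjusted by Benjamini-Hochberg over 16515 genes, and a gene was called changed at an adjusted p below 0.05. The common coefficient of biological variation was 4.17%. Log2 fold changes are 48 h minus 0 h unless stated. Counts of the 12 replicate pairs differed by more than sampling noise, with a chi-square per gene of 1.95 to 8.56. Coordinates, lengths and start sites came from GENCODE release 44 on hg38, which matched 19943 of 20771 identifiers. The alternatives were DESeq2 1.42.0, other scalings and filters, a replicate block, a fit that was not robust, each line alone, stricter thresholds and leaving out each library.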

Additional observations from a re-analysis of the deposited data

Results flagged for a closer look

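The response to removal of doxycycline differed between the lines in 4 genes by the test of the difference itself, in which the TC71 log2 fold change was subtracted from that of EW8. The difference was -0.31 for FLI1, 0.78 for NR0B1, -0.13 for PRKCB and -0.44 for CD99. FLI1 and PRKCB fell in both lines and NR0B1 rose in both, whereas CD99 was called in EW8 alone. RRM1 itself rose by 2.88 in EW8 and 0.65 in TC71, and the part of that difference in these 4 results was not tested. Groups of 3 libraries are too small for a test of single libraries that stand apart.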

How the results depend on the processing

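Of 990 values of single genes under an alternative setting, 75 lost the call with their direction kept and 7 gained it, and 772 of 820 counts stayed within 1.5 times the value reported. Of 791 values of results called as reported, 1 changed sign and lost its call, CD99 in TC71 relative to EW8 at 0 h, with 0.0493 under scaling by total counts. Of 199 values of results that were not called, 9 changed sign, all for CD99 in TC71 and for the differences between the responses of EWSR1 and of STEAP1, and none of the 9 was called. That scaling moved the median of all genes by 0.13 in EW8 at 48 h and by 0.13 between the lines at 0 h. It gave 2 of the 10 genes higher in the EW8 response than in the TC71 response, of which EZH2 (0.18, edgeR adjusted p = 0.0114) had not been called, against 5018 higher and 2941 lower genes in all. At 0 h it gave 5 higher and 3 lower in TC71, against 6940 higher and 3910 lower genes in all. It also left 1 repressed target and 1 other ETS gene falling in EW8, and 6 PRC2 genes rising and 1 falling in TC71. Upper-quartile scaling gave 3 of the 10 lower in TC71 at 0 h, and 1 ETS gene falling in TC71. With each line fitted alone, or at an adjusted p below 0.01, 1 PRC2 gene fell in TC71.

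With a fold of 2 in addition, the 10 genes gave 0 rises and 1 fall in EW8, 0 and 0 in TC71, 0 and 0 differed in the responses, and 0 were higher and 1 lower in TC71 at 0 h. Over all genes this gave 2294 higher and 554 lower in EW8, 539 and 141 in TC71, 1202 and 162 for the responses, and 1964 and 787 at 0 h. Of the activated targets 6 rose with 0 falling in EW8 and 2 and 0 in TC71, of the repressed targets 1 fell in EW8 and 8 rose in TC71, of the ETS genes 4 rose with 0 falling in EW8 and 2 rose in TC71, of the PRC2 genes 0 rose and 0 fell in either line, and of the Hedgehog genes 1 rose with 0 falling in EW8 and 1 rose in TC71. These counts hold for TMM scaling and all 12 libraries. With scaling by total counts BCL11B in EW8 was at -0.98, short of a fold of 2, and NR0B1 at 1.10 was past it. NR0B1 was also past it without EW8 48 h replicate 2 (1.02). GLI1 in TC71 relative to EW8 at 0 h lay between -1.17 and -0.97 when 1 library was left out.

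Leaving out 1 library at a time gave 2 to 4 of the 10 genes rising in TC71, against 3208 to 3942 of all genes, with 2 and 3648 without TC71 48 h replicate 2. It gave 0 to 1 ETS gene falling in TC71, with 1 without EW8 0 h replicate 3, and 1 to 2 PRC2 genes falling in TC71, with 1 without TC71 0 h replicate 3, 48 h replicate 1 or 48 h replicate 3. Upper-quartile scaling and a minimum of 10 counts in every library added a call of PRKCB at 0 h (0.13 and edgeR adjusted p = 0.000322, and edgeR adjusted p = 0.0259). The cause of these shifts was not tested.

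Replicate numbers did not pair the samples, since same-numbered libraries within a line correlated at -0.138 to -0.0147 over 6 pairs. With the replicate number as a block, 3 of the 10 genes rose while 6 fell in EW8, and 3 rose while 5 fell in TC71, against 5875 and 4968 of all genes in EW8 and 3322 and 2645 in TC71. The call of STEAP1 was lost in both lines under the block (edgeR adjusted p = 0.0542 and 0.0562), as were the difference between the lines for PRKCB (edgeR adjusted p = 0.103) and that of CD99 at 0 h (edgeR adjusted p = 0.0656).

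By the Wald test of DESeq2, 3 of the 10 genes rose while 6 fell in EW8, against 5932 and 5004 of all genes, with STEAP1 not called (0.10, adjusted p = 0.0599), and in TC71 4 rose while 4 fell, against 3392 and 2614, with GLI1 not called (adjusted p = 0.0551). Genes near 3 counts per library, such as TGFBI at 0 h, limit how firm a fold is.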

Other observations

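Other ETS genes, which share the DNA-binding domain of FLI1, were tested beside FLI1. Of 24 on the list 16 were tested, SPI1 and SPDEF did not pass the filter on low counts, and ERG, ETS1, EHF, ELF3, ELF5 and ETV7 were not analysed here. In EW8 13 rose and 2 fell, against 37.0% and 31.6% of all genes, with a median log2 fold change of 0.67. In TC71 10 rose, against 22.9% of all genes, with a median of 0.31. The 2 that fell in EW8, named after their values were seen, were ELK3 (-0.37) and ELK4 (-0.24).

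ETV5, a factor of the PEA3 group that responds to growth factor signalling, was at 45.8 ± 2.35 CPM in EW8 at 0 h and 144 ± 5.45 CPM at 48 h (SD, n = 3), and at 86.6 ± 3.02 and 139 ± 4.86 CPM in TC71. Its log2 fold change was 1.65 (edgeR adjusted p = 6.48e-25) in EW8 and 0.68 (edgeR adjusted p = 5.07e-14) in TC71, and the difference was 0.97 (edgeR adjusted p = 1.24e-13). ETV1, of the same group, rose by 1.37 in EW8 and 1.45 in TC71 (edgeR adjusted p = 3.28e-19 and 1.19e-12). ETV4 had 6, 6 and 5 counts in EW8 at 0 h and 10, 15 and 15 at 48 h, a rise of 1.51 (edgeR adjusted p = 0.00378), and at most 4 counts in any TC71 library. FEV, which is itself a rare fusion partner of EWSR1, rose by 0.97 in EW8 and by 1.16 in TC71 (edgeR adjusted p = 1.27e-13 and 3.59e-12).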
